A study of Mus musculus with 24 samples.

Results

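The comparison concerned the retinal microvascular endothelial cells (retMECs) of diabetic and non-diabetic mice, as 6 regions out of 24 in the series. The members were the 3 regions that the labels call diabetic retinal MEC and the 3 that they call non-diabetic retinal MEC, and no measured value entered their choice. All animals were male C57BL/6J mice. Diabetic mice had received streptozotocin, a toxin of the insulin-producing beta cell, at 50 mg/kg on each of 5 days from 8 weeks of age, and non-diabetic mice had received citrate buffer alone. Tissue was taken 2 months later, so both groups were of 1 age and differed by the injection and by what followed it. The study reports hyperglycemia, lower body weight, polyuria, glucosuria and ketonuria in the diabetic mice, which cannot be told apart here. Used beside them were kidney (renMECs) and heart areas positive for the endothelial protein CD31, and retinal areas positive for the neuronal protein NeuN (neuronal), each as 3 diabetic and 3 non-diabetic regions. Diabetic heart regions 2 and 3 carry titles with the organ but without the cell type. The labels do not tie a region to an animal.

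Retinal capillaries form the inner blood-retinal barrier. Their endothelial cells are sealed by tight junctions, are covered densely by pericytes, and lie against Müller glia and neurons in what is called the neurovascular unit. Loss of pericytes, thickening of the basement membrane and leakage of these vessels are the lesions by which diabetic retinopathy is known. The question of the comparison was which transcripts differ in these vessels after 2 months of diabetes. Transcripts were read with the GeoMx Mouse Whole Transcriptome Atlas, in which hybridization probes carry a barcode that ultraviolet light releases from a chosen area of a fixed section. A count is therefore the number of distinct barcode molecules of 1 probe in 1 region. In such a region, fewer cells of a type and less RNA per cell cannot be told apart.

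The deposited lists name probes by number and give no gene symbol, and the reference tables used here pair none of these numbers with a gene. Pecam1, which encodes CD31, and the other markers of endothelium, pericytes, glia and neurons could therefore not be read. No probe or barcode sequence was at hand either, and results are given for probes and groups of probes.

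The retMEC regions were shallow. Non-diabetic regions 1, 2 and 3 held 342522, 85657 and 71038 counts. Diabetic regions 1, 2 and 3 held 93113, 28722 and 44958 counts. The 75th percentile of a region, to which the study's methods scale, was 20, 5 and 4 counts in the non-diabetic and 5, 2 and 3 counts in the diabetic regions. Of the 20186 probes with a count anywhere in the series, 20175 had a count in at least 1 retMEC region and 8318 in every one. Between 39.9% and 61.0% of reads aligned to a barcode, against 79.4% to 96.7% in the other 18 regions. By the labels, plate 1 held the retMEC regions and plate 2 all others, so a difference in level between retMECs and another cell type cannot be told apart from the plate. Each diabetes effect lies within 1 plate.

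Non-diabetic region 1 had a flat profile, in which counts were spread almost evenly over the probes. After all regions were thinned to the 28722 counts of the shallowest, the 100 probes with most counts held 2.98% of the counts of non-diabetic region 1. They held 10.03% and 14.9% in non-diabetic regions 2 and 3, and 13.1%, 13.5% and 12.5% in diabetic regions 1, 2 and 3. The diabetic regions thus lay close together and within the range of the non-diabetic ones. The means were 9.29% ± 5.97 (SD, n = 3) and 13.1% ± 0.523 (SD, n = 3), with an exact permutation p of 0.4. With 3 regions against 3, no permutation p can fall below 0.1. The number of probes with a count at the same depth was 15014, 13334 and 12178 in the non-diabetic regions and 12330, 12361 and 12843 in the diabetic regions. Non-diabetic region 1 was again the extreme one, and the groups overlapped, with an exact permutation p of 0.4.

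**Figure D1:**
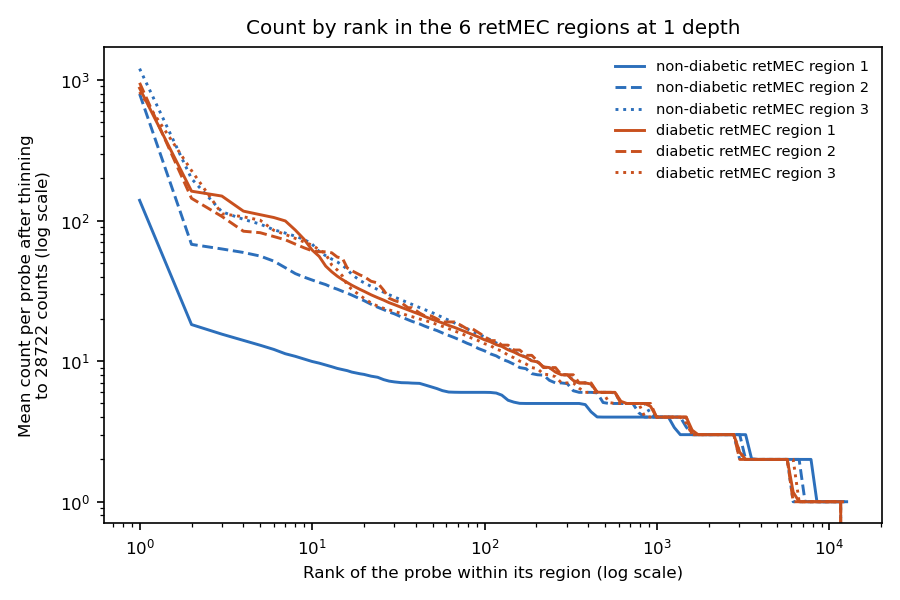
Count per probe (log scale) against the rank of the probe within its region (log scale) in the 6 retMEC regions, as means over 100 thinnings to 28722 counts, with non-diabetic regions in blue and diabetic regions in orange. The curve of non-diabetic region 1 starts far below the others and stays flat, with 2.98% of its counts in its first 100 probes against 10.03% to 14.9% in the other 5 regions.

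With no gene symbols, the label of the regions was checked with 3 lists of probes that the retMEC regions had no part in making. A retina list held 198 probes that were at least 4-fold higher in non-diabetic neuronal regions than in both renMEC and heart regions. A microvessel list held 513 probes that were at least 2-fold higher in both renMEC and heart regions than in neuronal regions. A low list held the 5046 probes with the lowest mean in the 18 other regions, the lowest 25% of all, and so measures counts on the probes that are lowest elsewhere. These lists are contrasts between tissues and not sets of known markers.

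By share of counts, the retMEC regions held the microvessel list at an intermediate level. It took 3.08%, 4.75% and 5.37% of the counts in non-diabetic regions 1, 2 and 3 and 5.29%, 6.39% and 5.78% in diabetic regions 1, 2 and 3. Neuronal regions held 2.96% to 3.85%, and renMEC and heart regions 9.58% to 15.3%. Non-diabetic region 1 fell inside the neuronal range and the other 5 regions above it, and all 6 were below every renMEC and heart region. The mean level of a microvessel list probe was 1.42, 3.44 and 5.23 times that of a low list probe in the non-diabetic regions. In the diabetic regions it was 4.77, 4.89 and 4.44 times. Neuronal regions had 3.13 to 5.00 times, so by this ratio only non-diabetic region 3 was above their range. Between diabetic and non-diabetic retMECs the means were 5.82% ± 0.551 and 4.40% ± 1.19 (SD, n = 3 each), with an exact permutation p of 0.2.

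The retina list took 1.20%, 2.35% and 3.70% of the counts in the non-diabetic and 2.93%, 1.25% and 1.95% in the diabetic retMEC regions. These values lay above the 0.530% to 0.829% of renMEC and heart regions and far below the 12.5% to 17.4% of neuronal regions. The groups overlapped fully, at 2.42% ± 1.25 and 2.04% ± 0.843 (SD, n = 3 each; exact permutation p = 0.7). The low list took 21.3%, 13.6% and 10.1% in the non-diabetic and 10.9%, 12.9% and 12.8% in the diabetic regions (exact permutation p = 0.7). Region by region, the mean level of a retina list probe was 1.44, 4.41 and 9.33 times that of a low list probe in the non-diabetic and 6.84, 2.47 and 3.87 times in the diabetic regions. It was 32.5 to 52.8 times in neuronal, 1.68 to 2.00 times in renMEC and 1.33 to 1.68 times in heart regions. By this ratio non-diabetic region 1 was inside the heart range and below the renMEC range. The other retMEC regions were above both and below the neuronal range. Retinal transcripts thus stood out least in non-diabetic region 1 and, among the diabetic regions, in region 2.

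**Figure D2:**
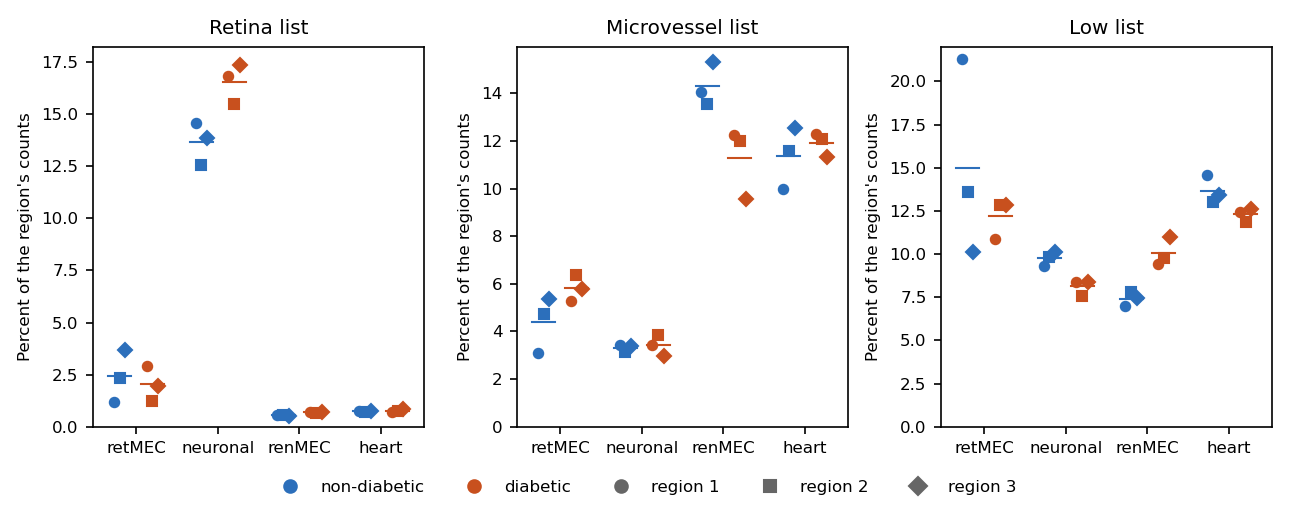
Percent of a region's counts on the retina, microvessel and low lists in the 4 cell types, with non-diabetic regions in blue, diabetic regions in orange, a symbol for each region number and a bar at the group mean (n = 3). The retMEC regions hold 1.20% to 3.70% on the retina list and 3.08% to 6.39% on the microvessel list, with the diabetic and non-diabetic regions overlapping on all 3 lists.

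A single probe led every retMEC region, with 1660, 2376 and 2971 counts in the non-diabetic and 2834, 955 and 1286 counts in the diabetic regions. That is 0.485%, 2.77% and 4.18% of the counts against 3.04%, 3.32% and 2.86%. The low value of non-diabetic region 1 is the flat profile again, and the other 5 regions do not separate by group. The fitted log2 fold change was 0.18 with a standard error of 0.98 (edgeR, adjusted p = 0.98).

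Several probes were high in 1 retMEC region only. A probe was counted as such if it had at least 20 counts and at least 10 times the CPM (counts per 1000000 counts of the region) of each of the other 5 regions, each taken as having at least 3 counts. The retMEC regions had 18 of these, against 1 in neuronal, 0 in renMEC and 1 in heart regions. Diabetic region 2 held 13 of the 18, which made up 2.11% of its counts. Non-diabetic region 3 held 3, diabetic regions 1 and 3 held 1 each, and non-diabetic regions 1 and 2 held 0.

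The highest probe of this kind in non-diabetic region 3 had 493 counts there, 13 and 2 in non-diabetic regions 1 and 2, and 5, 3 and 2 in the diabetic regions. Its level there was 6940 CPM, against at most 104 CPM in the other retMEC regions. That of diabetic region 3 had 355 counts there, 0 and 2 in diabetic regions 2 and 1, and 22, 2 and 2 in the non-diabetic regions. That is 7896 CPM, against at most 64.2 CPM in the others. The probe of diabetic region 1 had 516 counts (5542 CPM, against at most 69.6 CPM) and the highest of diabetic region 2 had 144 counts (5014 CPM, against at most 93.4 CPM). Such a probe raises the mean of its group through 1 region.

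The test of diabetes in retMECs called no probe. After removal of probes with too few counts (the edgeR filter, with its minimum set to 10 counts), 699 probes were tested with edgeR's quasi-likelihood test on counts scaled to the 75th percentile of all probes. At a Benjamini-Hochberg adjusted p under 0.05, 0 passed (0% of those tested). Before adjustment, 21 probes were higher (3%) and 1 lower (0.143%) in diabetes with p under 0.05. The filter needs enough counts for the depth in at least 3 regions. A probe below that in the flat non-diabetic region 1 was thus tested only if at least 1 diabetic region reached it. DESeq2 called 0 of the same probes, with 26 higher and 2 lower before adjustment. The median standard error of a log2 fold change was 0.69, so a typical probe would have had to differ several-fold to pass. The biological coefficient of variation, the spread between regions of a group beyond counting error, was 0.509 in retMECs and 0.319 without non-diabetic region 1. It was 0.136 in neuronal, 0.180 in renMEC and 0.162 in heart regions.

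The balance of directions differed between scalings and filters. With TMM factors 11 probes were higher and 1 lower, with DESeq2 size factors 22 and 1, and with total counts 32 and 1, each close to the one-sided split above. Scaling to the kept probes gave another split. The 75th percentile of the 699 kept probes was 34, 23 and 24 counts in the non-diabetic regions and 31.5, 9 and 14 counts in the diabetic regions. As CPM this is 99.3 in non-diabetic region 1 against 269 to 338 in the other 5. Scaled to it, the same test called 4 probes (0.572%), 2 higher and 2 lower, and had a median standard error of 0.39. Before adjustment 26 probes were higher (3.72%) and 36 lower (5.15%). The median log2 fold change of the kept probes was 0.37 under the first scaling and -0.09 under the second. Under the first scaling with no filter on low counts, 192 of 20175 probes were higher and 925 lower with p under 0.05 before adjustment.

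The number of calls changed with the regions in the fit. With a region left out under this second scaling, 2 probes were called without non-diabetic region 1, 0 without non-diabetic region 2, 2 without non-diabetic region 3, 0 without diabetic region 1, 10 without diabetic region 2 and 1 without diabetic region 3. The log2 fold changes moved less: with a region left out, that of RTS0067588, one of the 2 higher probes, ran from 1.30 to 1.60 and that of RTS0075409, one of the 2 lower, from -1.98 to -1.38. Under the first scaling no region left out gave a call. There, without non-diabetic region 1, the unadjusted split turned from 21 higher and 1 lower to 28 higher and 32 lower. Without diabetic region 1 it was 2 higher and 5 lower.

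**Figure D3:**
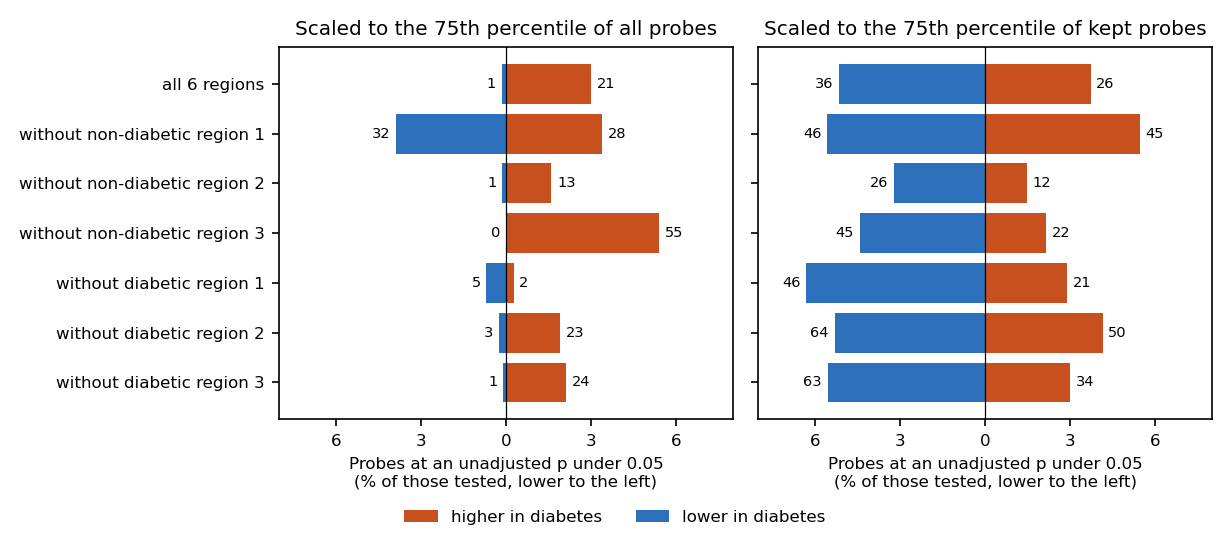
Probes at an unadjusted p under 0.05 (edgeR) as a percent of the probes tested, higher in diabetes to the right and lower to the left, with all 6 retMEC regions and with each left out, under scaling to the 75th percentile of all probes (left panel) and of kept probes (right panel); the number beside each bar is the count of probes. Under the first scaling the split leans to the higher side except without non-diabetic region 1 (28 higher, 32 lower) or without diabetic region 1 (2 higher, 5 lower). Under the second both sides are filled in every case.

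The abundant probes were those with a mean of at least 300 CPM over the 6 regions, which is 168 probes, 157 of them among the 699 tested. They included 9 probes of the retina list, 20 of the microvessel list and 6 of the low list. Their median level was 128, 420 and 542 CPM in non-diabetic regions 1, 2 and 3 and 516, 487 and 489 CPM in diabetic regions 1, 2 and 3. Non-diabetic region 1 was the lowest of the 6 regions for 146 of the 168.

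All 3 diabetic regions lay above all 3 non-diabetic regions for 30 abundant probes (17.9%), and below them for 0. Over all kept probes the counts were 107 above (15.3%) and 0 below (0%), so the abundant probes were near the background. With non-diabetic region 1 so low, hardly any probe could have its diabetic regions below it. Without that region 30 abundant probes were still above and 10 below, and over all kept probes 107 were above (15.3%) and 64 below (9.16%). The kept probes were still those of the filter over all 6 regions. A probe below its minimum in non-diabetic region 1 was kept only through at least 1 diabetic region. The filter's part in these counts was not tested. Scaled to the 75th percentile of kept probes, 20 abundant probes were above and 7 below, beside 40 (5.72%) and 64 (9.16%) of all kept probes.

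The median log2 ratio of the group means was 0.49 over the abundant probes and 0.40 over all kept probes, a relative shift of 0.088. Without non-diabetic region 1 the relative shift was 0.0055. For the 30 probes above, the median level was 118, 344 and 380 CPM in the non-diabetic and 564, 557 and 512 CPM in the diabetic regions. Non-diabetic regions 2 and 3 thus also lay below the diabetic regions on these probes, which is how they were chosen.

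**Figure D4:**
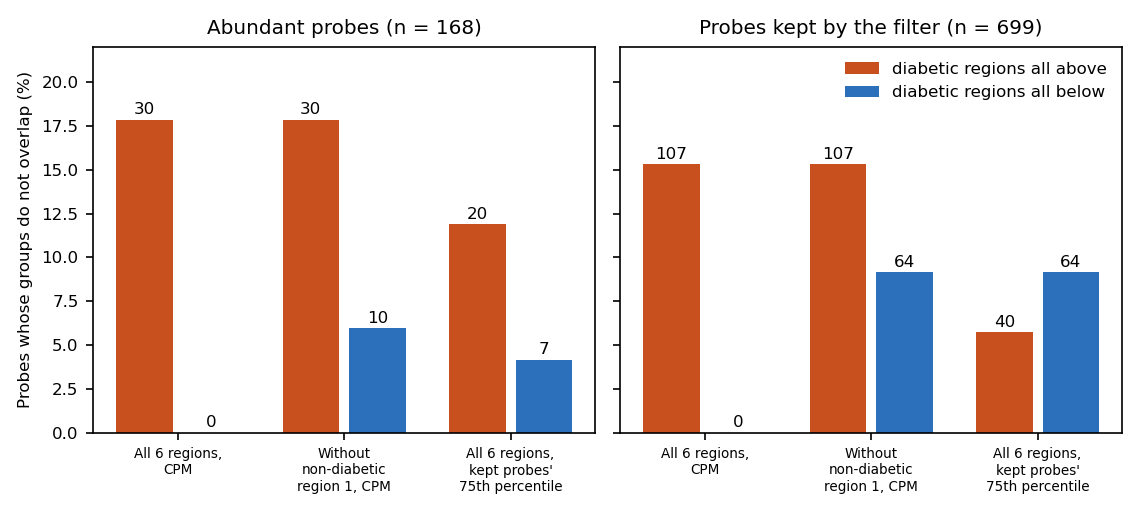
Percent of probes whose 3 diabetic retMEC values all lie above (orange) or all below (blue) the non-diabetic values, for the 168 abundant probes and for the 699 probes kept by the filter, with the number of probes over each bar. With all regions in CPM no probe is below. Leaving out non-diabetic region 1 adds 10 abundant and 64 kept probes below, and scaling to the kept probes' 75th percentile gives 7 and 64.

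The same 30 probes were set beside their diabetes effect in the other cell types, whose regions had no part in choosing them. In neuronal regions 10 of the 30 had every diabetic region below every non-diabetic one (33.3%, against 13.6% of the 699 kept probes) and 2 had them above (6.67%, against 7.58%). Their median difference on the log2(CPM + 20) scale was -0.33 in neuronal regions, against -0.06 over the kept probes. In renMEC regions 4 were below (13.3%, against 15.2%) and 1 above (3.33%, against 10.3%), with a median of -0.11 against -0.03. In heart regions 6 were below (20%, against 5.72%) and 5 above (16.7%, against 12.2%), with a median of -0.08 against 0.08. The 30 were drawn from the 168 abundant probes, which are a closer background. Of the 168, 16.07% were below and 9.52% above in neuronal regions (median -0.04). In renMEC regions 11.31% were below and 10.71% above (median -0.02), and in heart regions 6.55% and 22.02% (median 0.15). Beside the 168, the 30 were less often above and more often below in each of these cell types. Outside the retMECs, then, 1 to 5 of the 30 had their diabetic regions all above.

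By the microvessel and retina lists, the retMEC probes divided as follows. Of the 102 microvessel list probes that passed the filter, 26 had all diabetic regions above (25.5%, against 15.3% of all kept probes) and 0 below. Their median log2 fold change was 0.63 against 0.37, and 6 were higher (5.88%, against 3%) and 0 lower with p under 0.05 before adjustment. Of the 48 retina list probes that passed, 2 were above (4.17%) and 0 below, with a median of -0.10. The whole lists held 513 and 198 probes. With non-diabetic region 1 so low, hardly any probe of either list could lie below. A list probe below the filter's minimum in that region was kept only through at least 1 diabetic region. The filter's part in the contrast between the lists was not tested. The share of the whole microvessel list had an exact permutation p of 0.2. Without non-diabetic region 1, 3 microvessel probes (2.94%) and 11 retina probes (22.9%) had all diabetic regions below, against 9.16% of all kept probes. Under scaling to the kept probes the medians were 0.10 for the microvessel list and -0.38 for the retina list, against -0.09. Under it 4 microvessel probes were higher and 3 lower with p under 0.05 before adjustment, and 0 retina probes higher and 8 lower, against 26 higher (3.72%) and 36 lower (5.15%) of all kept probes. The share of the whole retina list varied 3-fold among the regions, with 3.70% of the counts in non-diabetic region 3 and 1.25% in diabetic region 2, and its part in these counts was not tested.

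Among abundant probes whose groups did not overlap, RTS0067588 and RTS0067801 had the smallest p. RTS0067588 had 26, 12 and 13 counts in the non-diabetic regions and 56, 13 and 22 counts in the diabetic regions, which is 75.9, 140 and 183 CPM against 601, 453 and 489 CPM. Every diabetic region was more than 2 times as high as any non-diabetic one, and diabetic region 2 rests on 13 counts. The means were 133 ± 53.9 and 514 ± 77.5 CPM (SD, n = 3 each). The log2 fold change was 1.91 with a standard error of 0.76 (edgeR, adjusted p = 0.98), and 1.39 with a standard error of 0.31 under scaling to the kept probes (adjusted p = 0.0165). With a region left out it ran from 1.60 to 2.22 under the first scaling and from 1.30 to 1.60 under the second.

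RTS0067801 had 128, 257 and 169 CPM in the non-diabetic and 612, 487 and 534 CPM in the diabetic regions, on 12 to 57 counts. The groups were again apart, at 185 ± 65.6 and 544 ± 63.0 CPM (SD, n = 3 each). Its log2 fold change was 1.49 with a standard error of 0.77 (edgeR, adjusted p = 0.98), and 0.87 (adjusted p = 0.26) under scaling to the kept probes. A further probe called under that scaling had means of 131 ± 71.3 and 430 ± 58.9 CPM and a log2 fold change of 1.28 with a standard error of 0.32 (adjusted p = 0.0412).

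For 0 abundant probes did all diabetic regions lie below all non-diabetic regions. The 2 lower probes called under scaling to the kept probes, RTS0075409 and RTS0079235, were picked after their values had been seen. RTS0075409 had 131, 817 and 746 CPM in the non-diabetic and 258, 279 and 111 CPM in the diabetic regions, the latter on 24, 8 and 5 counts. Non-diabetic regions 2 and 3 were high and the flat non-diabetic region 1 lay among the diabetic ones. Its log2 fold change was -1.69 with a standard error of 0.36 (adjusted p = 0.0165), and -1.46 (adjusted p = 0.98) under the first scaling. RTS0079235 had 175, 1331 and 929 CPM in the non-diabetic and 419, 244 and 133 CPM in the diabetic regions, with the same overlap through region 1. It had 39, 7 and 6 counts in the diabetic regions. Its log2 fold change was -1.84 with a standard error of 0.40 (adjusted p = 0.0165), and -1.62 (adjusted p = 0.98) under the first scaling.

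**Figure D5:**
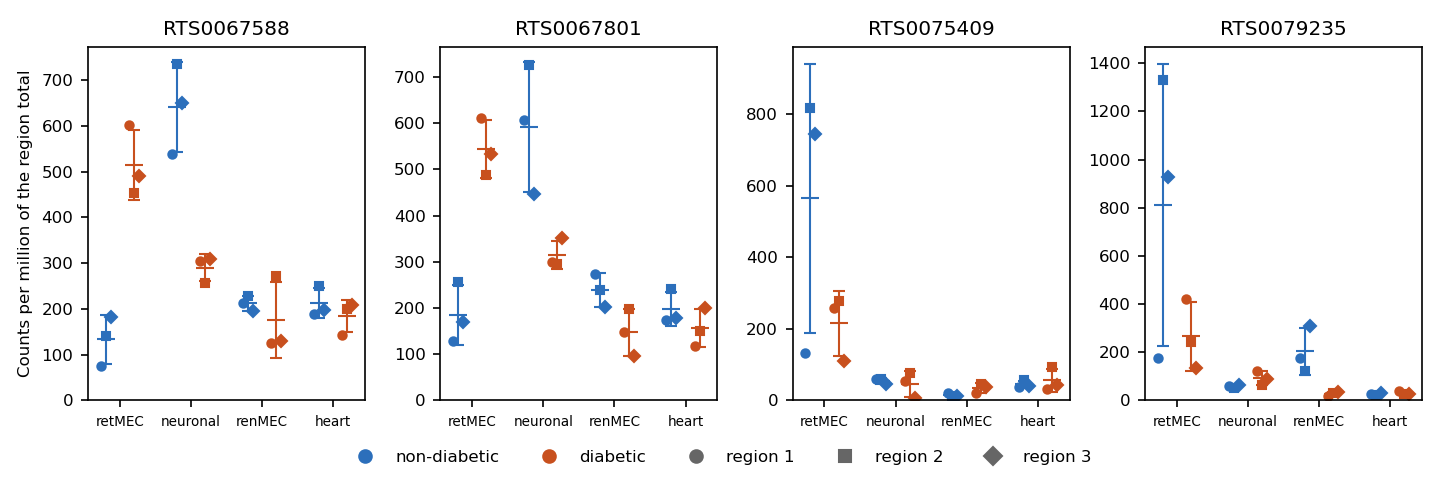
CPM of RTS0067588, RTS0067801, RTS0075409 and RTS0079235 in each region of the 4 cell types, with non-diabetic regions in blue, diabetic regions in orange and bars at the mean ± SD (n = 3). RTS0067588 goes from 133 to 514 CPM in retMECs and from 641 to 290 CPM in neuronal regions, and RTS0079235 is lower in diabetes in retMECs apart from the flat non-diabetic region 1 and in renMECs.

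The diabetes effect on RTS0067588 ran in opposite directions in the retina. Neuronal regions had 539, 735 and 650 CPM without diabetes and 305, 256 and 309 CPM with it, so the groups were apart the other way. The log2 fold change in neuronal regions was -1.13 with a standard error of 0.23 (edgeR, adjusted p = 0.000452). The difference between the 2 effects, tested as an interaction in a model of all 24 regions, was 3.18 with a standard error of 0.55 (edgeR, adjusted p = 0.000561 over 11299 probes). It was called in 10 of 10 settings, which were the main one, other scalings and filters, and each retMEC region left out, and the adjusted p ran from 6.69e-06 to 0.0192. All 10 settings, here and for the other named probes, used 1 spread per probe for all cell types. The main standard error of 0.55 was below the 0.76 of the retMEC effect fitted alone (edgeR, adjusted p = 0.98). The probe was also picked by its retMEC values, so these settings are not independent support. Diabetic retMECs (514 CPM) and non-diabetic neuronal regions (641 CPM) had the higher levels of the probe, but these lie on different plates.

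Against renMECs, where RTS0067588 went from 212 ± 16.5 to 175 ± 82.9 CPM, the difference of effects was 2.56 (edgeR, adjusted p = 0.00837). Against the heart, where it went from 212 ± 33.5 to 184 ± 35.4 CPM, it was 2.39 (edgeR, adjusted p = 0.0448). The first was called in 9 of 10 settings, with an adjusted p of 0.179 without diabetic region 1, and the second in 6 of 10.

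RTS0067801 moved in the same directions. It fell in neuronal regions from 593 ± 141 to 315 ± 31.1 CPM (log2 fold change -0.92, edgeR adjusted p = 0.0100) and in renMECs from 238 ± 36.2 to 147 ± 50.8 CPM (-0.93, adjusted p = 0.0309). The differences from retMECs were 2.49 against neuronal (adjusted p = 0.0109) and 2.49 against renMEC regions (adjusted p = 0.00837), each called in 9 of 10 settings. Both were lost without diabetic region 1, at adjusted p of 0.130 and 0.179. Against the heart the difference was 2.05 (adjusted p = 0.103).

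RTS0079235, called lower in retMECs only under scaling to the kept probes, fell in renMECs as well. There it had 178, 122 and 310 CPM without diabetes and 16.8, 32.1 and 32.9 CPM with it (log2 fold change -3.22, standard error 0.41, edgeR adjusted p = 0.000439). The diabetic renMEC values rest on 6, 7 and 11 counts. The difference of effects between retMECs and renMECs was 1.72 with a standard error of 0.87 (edgeR, adjusted p = 0.474). In neuronal regions its log2 fold change was 0.78 with a standard error of 0.32 (edgeR, adjusted p = 0.305). The difference of the retMEC effect from the neuronal one was -2.20 (edgeR, adjusted p = 0.464), and -2.54 with scaling to the kept probes and only those tested (adjusted p = 0.0172). RTS0075409 had 11.4 to 59.0 CPM in non-diabetic and 5.94 to 91.9 CPM in diabetic regions of the other cell types, below every retMEC region.

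Over all probes, the diabetes effect differed between retMEC and neuronal regions for 32 of the 11299 probes in the model (edgeR, 0.283%), and the retMEC effect was the larger for 31 of them. Against renMECs 23 differed (0.204%), 19 with the larger retMEC effect, and against the heart 12 (0.106%), all 12 with the larger retMEC effect. For the 31 against neuronal regions the median log2 fold change was 1.54 in retMECs and -0.99 in neuronal regions, beside -0.12 and -0.11 over all probes, and 21 had all diabetic retMEC regions above (67.7%, against 4.35% of the 11299 probes). A large difference is what picked them, so these medians describe the list. Of the 31, 0 were among the probes high in 1 region only. With only the 699 kept probes tested, 39 were larger and 1 smaller against neuronal, 28 and 0 against renMEC, and 19 and 0 against heart regions. With those probes also used for the scaling, the splits were 21 larger and 12 smaller, 17 and 23, and 14 and 2. As above, a probe below the filter's minimum in non-diabetic region 1 is among the 699 only through a diabetic region. Without diabetic region 1 the counts against neuronal, renMEC and heart regions were 3, 6 and 0. The labels tie no region to a mouse, so the model could not hold the mouse as a block, and these p-values do not account for regions of the same animal. The model also used 1 spread per probe for all cell types. In fits of each cell type, the biological coefficient of variation was 0.509 in retMECs and 0.136 to 0.180 in the others.

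The methods' t-test on scaled counts, at the thresholds the methods give (p under 0.05 and a fold change over 1.5), passed 188 probes higher and 1056 lower in diabetes out of 20175 (6.17%). After Benjamini-Hochberg adjustment 1 remained. Of the 699 probes with enough counts for edgeR's filter, 39 passed as higher and 0 as lower, so all 1056 lower probes had been removed by that filter.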

How the data were processed

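For each region the authors deposited raw counts by probe, made with GeoMx NGS Pipeline 2.3.4 (submitters' processing notes), which matches reads to barcodes and collapses copies that share a molecular identifier. Per the labels the genome build was mm10. The deposited counts are not scaled, and a probe not listed was taken as 0. Neither the gene exclusion nor the percentile scaling of the study's methods had been applied.

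Counts were tested with edgeR 4.0.16 in R 4.3.3 (robust quasi-likelihood fit, scaling to the 75th percentile of all probes, a filter at a minimum of 10 counts, Benjamini-Hochberg adjustment), with DESeq2 1.42.0 as an alternative. Single values per region were compared with two-sided exact permutation tests in SciPy 1.17.1. Thinned values are means of 100 seeded draws. The fit and the t-test were tested on simulated data. For the fit, these had 1 profile for all regions and a smaller spread than the retMEC regions. They therefore do not tell how well the fit performs on these regions. Depth was 28722 to 342522 counts, and the floor of 3 counts corresponded to 8.76 to 104 CPM; it covers counting error only.

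Groups and replicate numbers came from the labels. The replicates of a group differed by more than sampling noise (chi-square per degree of freedom 1.69 to 4.29), and the study used 3 mice per group but its labels tie no region to a mouse, so p-values measure the spread between regions. The members, lists and tests were chosen with earlier results of these data known. The rule for named probes, with no gene symbols, was at most 2 higher and 2 lower abundant probes with the smallest p among those whose groups did not overlap; 0 lower ones met it. Scaling to the kept probes with a region left out or a replicate block, the interaction and the overlap of groups under that scaling, the settings of the named interactions, and subtraction of the low list were added after the data had been seen. Gene symbols, marker genes and gene sets were not analysed here.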

Additional observations from a re-analysis of the deposited data

Results flagged for a closer look

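The number of probes whose diabetes effect differed between cell types, by a test of the difference itself, was 32 for retMEC against neuronal regions, 23 against renMEC regions and 12 against heart regions (edgeR, all 24 regions). These counts leaned on diabetic retMEC region 1, without which they were 3, 6 and 0.

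RTS0067588 had a larger log2 fold change in retMECs than in neuronal regions by 3.18, than in renMECs by 2.56 and than in the heart by 2.39. RTS0067801 had a larger one than in neuronal regions by 2.49 and than in renMECs by 2.49. Both probes rest on 12 to 57 counts in a retMEC region.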

How the results depend on the processing

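Of the values per region, the differences of means (diabetic minus non-diabetic) that moved by more than the spread between regions were the number of probes detected without thinning (-3331 in place of -997), the retina list share with probes at least 2-fold higher (0.713 in place of -0.378 percentage points) and the microvessel list share with probes at least 4-fold higher (0.191 in place of 1.42 percentage points); the cause was not tested. The 0 calls became 4 with the kept-probe percentile, 19 with no filter and 5 in the model of all 24 regions, and stayed 0 with TMM, DESeq2 factors, totals, DESeq2, other filters, thinning, a replicate block and each region left out. Of the 19, 11 were probes high in 1 region only. With the kept-probe percentile and a region left out, 0 to 10 were called: 2 without non-diabetic replicate 1, 2 without non-diabetic replicate 3, 10 without diabetic replicate 2 and 1 without diabetic replicate 3. The 22 probes at an unadjusted p under 0.05 became 12 with TMM and 62 with the kept-probe percentile (26 higher, 36 lower). With no filter they were 1117 (192 higher, 925 lower). They were 4 with 10 counts in every region, 8 over abundant probes only, 4 after thinning and 2 with the replicate block. In the model of all 24 regions they were 1084 (473 higher, 611 lower). They ran from 7 to 60 with a region left out. With the kept-probe percentile they were 57 with the replicate block and 91, 38 and 67 without non-diabetic replicate 1, 2 and 3, and 67, 114 and 97 without diabetic replicate 1, 2 and 3. Regions of the same number did not deviate together (r = -0.14, -0.05 and 0.05), so the numbers were not taken as pairs; with the block 0 probes were called under either scaling. The interaction counts ran from 3 to 75 against neuronal, 6 to 121 against renMEC and 0 to 34 against heart regions with a retMEC region left out. Those against the heart were 1 with TMM and 19 over the kept probes alone, and those against renMECs 28 over the kept probes alone and 40 with these also used for the scaling. The passes of the methods' t-test ran from 959 to 1557 with a region left out and were 39 over the kept probes. The log2 fold changes of the named probes kept their direction in every setting. With 1 to 20 counts at a region's median or 75th percentile, differences in most probes were not detectable at this depth.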
